A study of Oryza sativa with 4 samples.

Results

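Respiratory burst oxidase homologs (RBOH) of rice were examined by their probes on 4 root-hair arrays. The family was given as 9 RAP gene identifiers, and every non-control probe whose name starts with one of them was taken. This gave 17 probes of 42477 on the array, for 9 of the 29689 genes with a locus identifier. Seedlings were taken at 3 days after germination (DAG) from medium with no treatment named, root hairs were brushed off their frozen seminal roots, and RNA of each sample was hybridized in 1 colour (Cy3) to 1 array. All 4 samples are of 1 condition, and no other tissue, mutant or treatment is among them. Replicates 1, 2 and 3 carry the cultivar label Don-gin and lay on slide 1 (replicates 1 and 2) and slide 2 (replicate 3). The remaining array, also on slide 2, carries the label Lon-gin and goes by the name Lon-gin-labelled array. The methods of the study describe 4 biological replicates of Dongjin, so the array was kept as a replicate, and each slide was scanned separately. The study checked its material by microscopy and RT-PCR. It reports the root-hair marker OsEXPA17 as strongly amplified and OsBOR1, expressed in other root cells, as weakly detected. Since the material was brushed off whole roots, RNA of neighbouring root cells may still be present. Fewer cells of a type cannot be told apart from less RNA per cell.

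RBOH proteins are plasma membrane enzymes that pass electrons from NADPH in the cytosol to oxygen outside the cell, where superoxide forms. Calcium binds the EF-hands of their cytosolic N-terminal region, Rac/ROP GTPases bind the same region, and calcium-dependent protein kinases phosphorylate it. In Arabidopsis, the family member RHD2 (RBOHC) is required for root hairs to elongate, and the reactive oxygen it makes at the hair tip opens calcium channels there. Os05g0528000 was put forward as the root-hair member when the genes were chosen. No source at hand annotates the 9 identifiers, so the genes are called by identifier and no individual function is given to them.

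By their identifiers, Os01g0360200, Os01g0734200 and Os01g0835500 lie on chromosome 1, Os05g0465800 and Os05g0528000 on chromosome 5, and Os08g0453700, Os09g0438000, Os11g0537400 and Os12g0541300 on chromosomes 8, 9, 11 and 12. Os01g0360200 is read by 4 probes, Os01g0734200 and Os01g0835500 by 3 probes each, Os09g0438000 by 2, and the other 5 genes by 1 probe each, always with 1 spot per array. For 14 probes the name gives an mRNA and its coding sequence with the 3' UTR as the target. The Os11g0537400 probe is named for the UTR of its mRNA alone, and those of Os08g0453700 and Os12g0541300 are named for expressed sequence tags. The probe sequences were not used here, so cross-hybridization among these related genes was not assessed.

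The level of a probe is log2 of its processed signal, scaled so that the 75th percentile of all probes is equal on the 4 arrays. Before scaling, this percentile was lower for slide 1 (10.59 and 10.73 on the log2 scale) than for slide 2 (11.49 and 11.80). The share of probes that the scanner software called well above background was 71.5% and 74.1% for the arrays of slide 1, beside 85.4% and 88.6% for those of slide 2. No probe was saturated on any array. OsCSLD1 (Os10g0578200), a cellulose synthase-like gene with reported root-hair expression, had levels of 14.22, 14.03, 14.90 and 14.44 on replicates 1, 2 and 3 and the Lon-gin-labelled array. It was the only marker whose identifier a source at hand annotated, so defining markers of other root cells were not examined. Whether slide, scan or starting RNA set these array-wide values was not tested.

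Signal of the RBOH family was present in these root-hair samples for most of its genes. Of the 9 genes, 7 had at least 1 probe well above background on all 4 arrays, beside 67.9% of all genes on the array. Genes are counted by the probe names. The transcripts assigned to the probes of Os08g0453700 and Os01g0734200 do not carry these identifiers. Os12g0541300 was well above background on the 2 arrays of slide 2 only, and Os05g0465800 on 1 array only. By probe, 13 of 17 were well above background on all 4 arrays, beside 69.9% of all probes. The family share of detected genes is thus near the share of the whole array. Probes of different genes differ in how strongly they respond, so their levels stand side by side here and give no order of transcript amount.

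**Figure D1:**
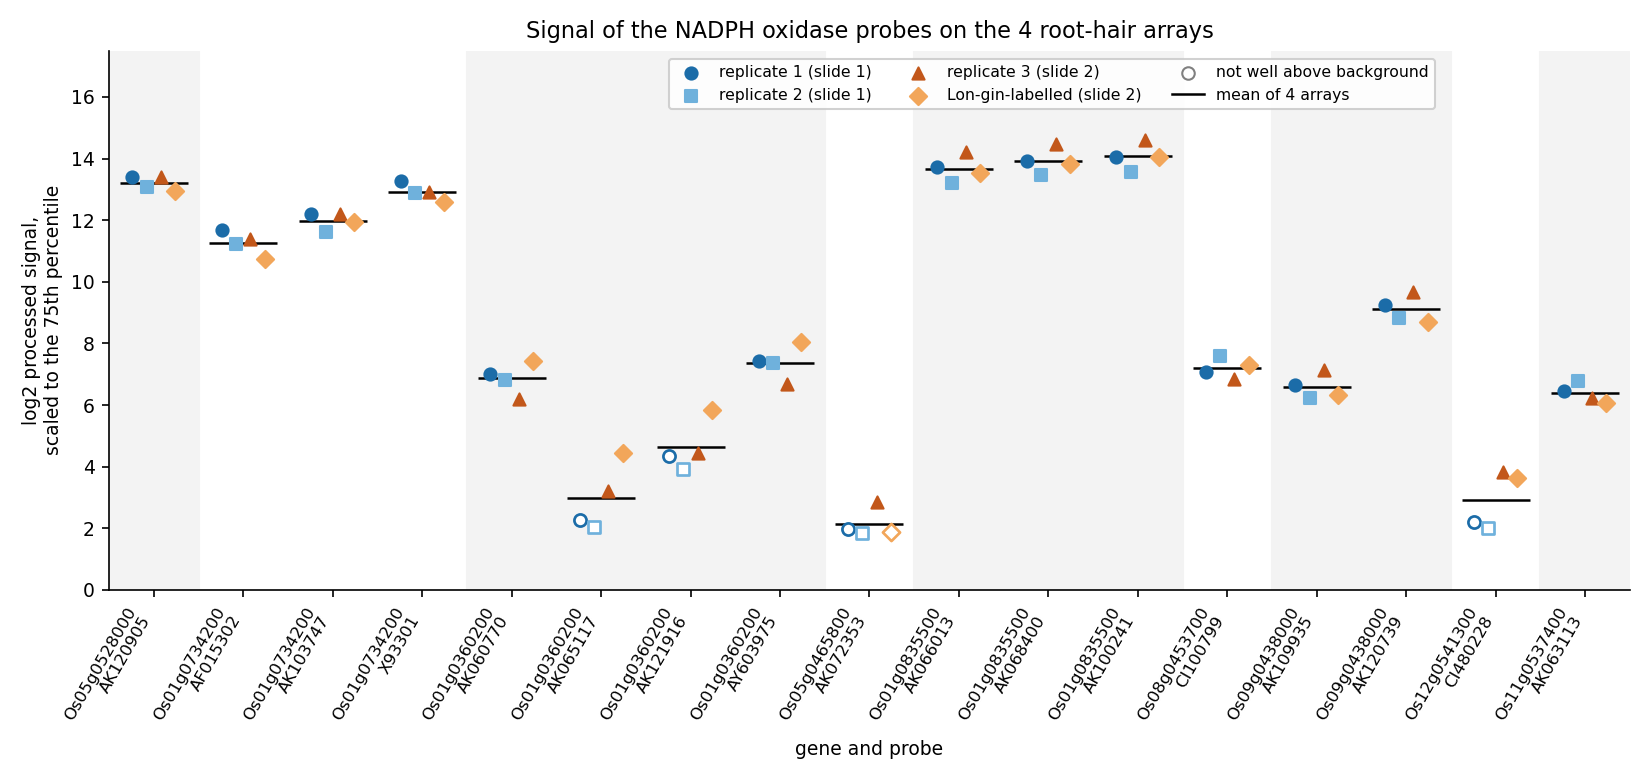
Level of each of the 17 RBOH probes (log2 processed signal scaled to the 75th percentile) by gene and probe on the 4 root-hair arrays. Filled symbols are well above background, open symbols are not, and each bar is the mean of 4 arrays. Os05g0528000 stays between 12.96 and 13.42, while the 4 probes with open symbols belong to Os01g0360200, Os05g0465800 and Os12g0541300.

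Os05g0528000 gave a bright signal on every array, with little spread once the arrays were scaled. Its probe AK120905 had levels of 13.42, 13.08, 13.39 and 12.96 (replicates 1, 2 and 3, then the Lon-gin-labelled array), a mean of 13.21 ± 0.23 (SD, n = 4). Replicate 1 was highest and the Lon-gin-labelled array lowest, 1.37-fold apart, and the values of the slides overlap. Over the 3 Don-gin arrays alone the mean was 13.29 ± 0.19 (SD, n = 3). Before scaling, the processed signals were 7409, 6435, 13553 and 12506 in the same order, with local backgrounds of 22 on every array. The error that the scanner software gave was at most 11.48% of the signal for the 13 detected RBOH probes. The SD of 0.23 was the smallest among these 13 probes, whose SDs ran from 0.23 to 0.56 with a median of 0.41. This rank depends on the scaling, since the SD of Os05g0528000 was 0.54 with no scaling and 0.49 with the deposited log2 values, where 3 and 6 of the 12 other probes had a smaller SD, and 1 had with normexp correction. The middle of the distribution over all 29688 probes detected on the 4 arrays ran from 0.25 to 0.59, with a median of 0.38. With the scaling used, the Os05g0528000 probe therefore lies below the lower quartile in spread, and the family as a group lies close to the array's median.

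Os01g0835500 also gave bright signals, and its 3 probes moved together from array to array. Probe AK066013 read 13.74, 13.21, 14.20 and 13.54 on replicates 1, 2, 3 and the Lon-gin-labelled array (mean 13.67 ± 0.42, SD, n = 4). Probe AK068400 read 13.93, 13.48, 14.46 and 13.83 in the same order (13.93 ± 0.41). Probe AK100241 read 14.07, 13.57, 14.61 and 14.05 (14.07 ± 0.43). All 3 probes were highest on replicate 3 and lowest on replicate 2, a range of 1.98-fold to 2.06-fold. The log2 difference between any pair of them had an SD over the 4 arrays of 0.05 to 0.08. Thus the spread of this gene was shared by its probes and was wider than the disagreement among them.

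Os01g0734200 likewise had bright signal on every array, though its probes agreed less closely. Probe X93301 read 13.26, 12.89, 12.91 and 12.59 in that order of arrays (12.91 ± 0.28, SD, n = 4). Probe AK103747 read 12.20, 11.61, 12.21 and 11.94 (11.99 ± 0.28). Probe AF015302 read 11.68, 11.21, 11.40 and 10.75 (11.26 ± 0.39). The Lon-gin-labelled array was lowest for AF015302 and X93301 but not for AK103747, for which replicate 2 was lowest. The files assign AK103747 and X93301 to transcript Os01t0734466-01 and AF015302 to its own GenBank record, and neither name carries the gene identifier of the probe name. The pair that shares a transcript name had an SD of their log2 difference of 0.30, and the pair AF015302 and X93301 one of 0.14, so the shared name did not mark the closest pair. AF015302 and AK103747 differed most, with an SD of 0.35.

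Os09g0438000 was detected on all arrays by both of its probes. Probe AK120739 read 9.25, 8.84, 9.66 and 8.68 on replicates 1, 2, 3 and the Lon-gin-labelled array (9.11 ± 0.44, SD, n = 4). Probe AK109935 read 6.64, 6.21, 7.15 and 6.32 (6.58 ± 0.42). The files name different transcripts of the gene for them, Os09t0438000-01 and Os09t0438000-02. Both were highest on replicate 3, and their log2 difference had an SD of 0.12.

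Os08g0453700 and Os11g0537400, each with 1 probe, gave moderate signal on every array. CI100799 of Os08g0453700 read 7.07, 7.58, 6.83 and 7.31 on replicates 1, 2, 3 and the Lon-gin-labelled array (7.20 ± 0.32, SD, n = 4). This probe is assigned to transcript Os08t0453733-00, which does not carry the gene identifier of the probe name. Replicate 3 was lowest for this gene, where it was highest for Os01g0835500 and Os09g0438000. AK063113 of Os11g0537400 read 6.47, 6.79, 6.22 and 6.07 (6.39 ± 0.31). It was the only detected RBOH probe with both arrays of slide 2 below both of slide 1, an order held by 29.4% of all detected probes. None of the 13 had both arrays of slide 2 above both of slide 1, an order held by 24.4% of all detected probes.

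Os01g0360200 had the largest SDs among the detected RBOH probes. Probe AY603975 read 7.44, 7.36, 6.69 and 8.04 on replicates 1, 2, 3 and the Lon-gin-labelled array (7.38 ± 0.56, SD, n = 4). Probe AK060770 read 7.004, 6.81, 6.20 and 7.44 in the same order (6.86 ± 0.51). These probes were highest on the Lon-gin-labelled array and lowest on replicate 3, and their log2 difference had an SD of only 0.07. AY603975 is assigned to TA40143_4530, which does not carry the gene identifier, and AK060770 to transcript Os01t0360200-03. The other probes of the gene were dim. AK121916 read 4.34, 3.93, 4.43 and 5.85, and AK065117 read 2.26, 2.03, 3.22 and 4.44. Both were well above background on the arrays of slide 2 and not on those of slide 1, so their values on slide 1 are not firm levels. All 4 probes of Os01g0360200 were highest on the Lon-gin-labelled array, the highest array for 25.4% of all detected probes and 30.0% of all probes. Probes of 1 gene share their RNA and are not 4 independent observations.

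**Figure D2:**
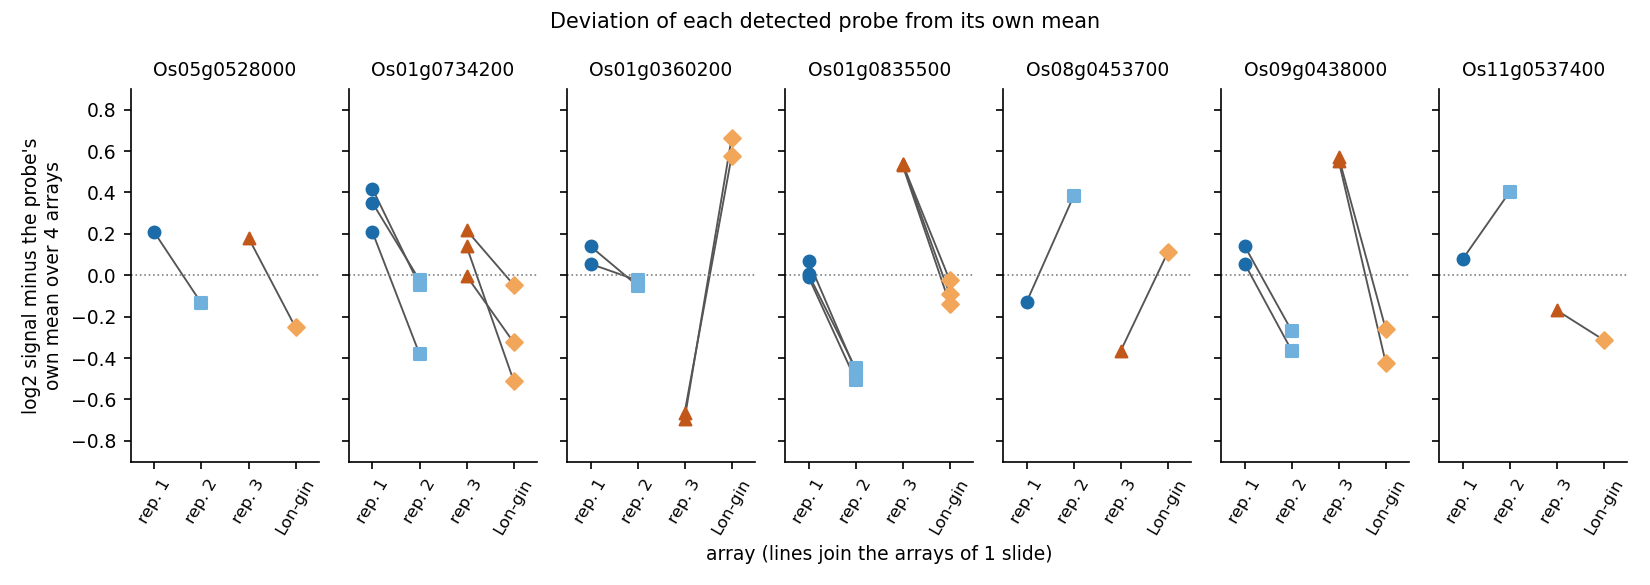
Deviation of each of the 13 detected RBOH probes from its own mean over 4 arrays (log2 signal), by gene, with lines joining the arrays of 1 slide. The 2 Os01g0360200 probes are highest on the Lon-gin-labelled array and lowest on replicate 3, while the Os01g0835500 and Os09g0438000 probes are highest on replicate 3.

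Agreement of probes within a gene was compared with that between genes, as a description, since the probes share the 4 arrays. Over the 8 pairs of detected probes of the same gene, the SD of the log2 difference over the arrays ran from 0.05 to 0.35 with a median of 0.10. Over the 70 pairs of different genes it ran from 0.09 to 0.97 with a median of 0.51. The RBOH genes therefore did not all vary together from array to array, and probes of 1 gene mostly moved together, except those of Os01g0734200, whose disagreement (0.14 to 0.35) reached the size of the probes' own SDs (0.28 to 0.39). Replicate 1 was above replicate 2 for 11 of the 13 detected probes, beside 54.3% of all detected probes, and the exceptions were Os08g0453700 and Os11g0537400. Replicate 3 was above the Lon-gin-labelled array for 10 of the 13, beside 51.1% of all detected probes, and the exceptions were Os08g0453700 and both detected Os01g0360200 probes.

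Os05g0465800 and Os12g0541300, together with the dim probes of Os01g0360200, had signals near background. AK072353 of Os05g0465800 read 1.98, 1.85, 2.84 and 1.89 in the order of replicates 1, 2, 3 and the Lon-gin-labelled array, and was well above background on replicate 3 only. Its median spot signals were 48, 53, 39 and 38 over local backgrounds of 22 to 23, so the unprocessed spot was not brightest on that array. CI480228 of Os12g0541300 read 2.21 and 1.996 on slide 1, with 3.84 and 3.64 on slide 2. Its processed signals were 3.13, 2.97, 18.0 and 19.6, whereas its median spot signals were 51, 52, 48 and 50. The gap between slides is therefore in the processed signal and not in the unprocessed spot. The part of background subtraction in it was not tested. For AK121916 of Os01g0360200 the median spot signals were 63, 64 and 58 on replicates 1, 2 and 3, and 119 on the Lon-gin-labelled one, so there the brightest spot was on that array before processing too. For AK065117 they were 47, 48, 40 and 62. The error given by the scanner software for the 4 dim probes ran from 10.3% to 99.6% of the signal.

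**Figure D3:**
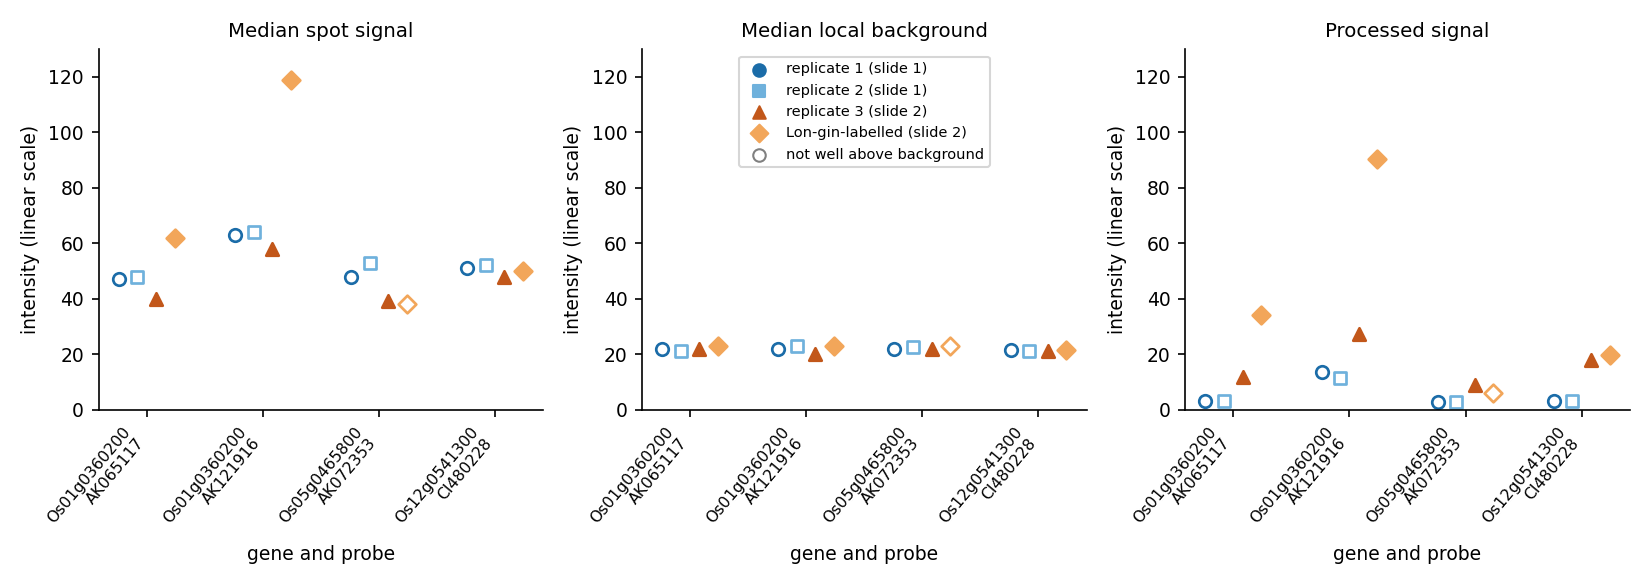
Median spot signal, median local background and processed signal (intensity on a linear scale) of the 4 RBOH probes not well above background on every array. The Os12g0541300 spots lie between 48 and 52 on all arrays before processing, while processed signals are 3.13 and 2.97 for slide 1 but 18.0 and 19.6 for slide 2.

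The split by slide, slide 2 against slide 1, was tested by limma over the 35922 probes detected on both arrays of at least 1 slide. The slides hold different samples, and the Lon-gin-labelled array lies on slide 2, so slide cannot be fully told apart from sample or label. With Benjamini-Hochberg adjustment, 3.15% of these probes were called at an adjusted p under 0.05 (3.03% higher and 0.114% lower on slide 2), and 0 of the 16 RBOH probes tested (2 at an unadjusted p under 0.05, beside 20.7% of all). No other tool was run for this comparison. AK072353 of Os05g0465800 did not pass the filter and was not tested. Os05g0528000 differed by -0.07 between slides (SE 0.31, 95% interval -0.89 to 0.75, limma adjusted p = 0.91), less than the spread between arrays. The interval leaves room for a change in either direction, so equality of the slides is not shown. Os11g0537400 differed by -0.48 (SE 0.27, limma adjusted p = 0.38). For Os01g0835500 the differences of its 3 probes were 0.39, 0.45 and 0.51 (limma adjusted p from 0.45 to 0.57). None of these differences passed the threshold. The Os05g0528000 difference was 0.92 with no scaling and 0.78 with the deposited log2 values, and that of Os11g0537400 turned to 0.50 with no scaling.

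Os12g0541300 came nearest to a call, with a difference of 1.64 between slides (SE 0.27, 95% interval 0.93 to 2.34, limma adjusted p = 0.058). Its processed signals on slide 1 (3.13 and 2.97) were close to their scanner errors (3.12 and 2.96). Neither had the scanner software's positive and significant flag, and the SE and interval rest partly on these values. The difference was 0.15 with normexp correction and turned to -0.19 with the deposited log2 values. AK065117 of Os01g0360200 differed by 1.69 (SE 0.48, limma adjusted p = 0.16), by 0.22 with normexp correction and by -0.09 with the deposited log2 values. Its slide 1 signals (3.23 and 3.04) were also close to their errors (3.22 and 3.03) and lacked that flag. AK121916 differed by 1.01 (limma adjusted p = 0.37), and by 0.20 with quantile normalization, 0.09 with normexp correction and 0.16 with the deposited log2 values. These 3 probes entered the fit through slide 2 alone, and that filter favours higher processed signals there. Of all probes, 9.8% showed that pattern of detection. Slide 1 values of the 3 probes were not well above background. On each array of slide 1, a floor was set at the higher of the probe's own signal and the lowest signal well above background. Over this floor, slide 2 was 1.69-fold higher for Os12g0541300 and 1.80-fold higher for AK065117 in processed signal. The normexp and deposited values do not reach these sizes. The floor is no strict bound. AK121916 read 4.34 and 3.93 on slide 1 without that call, above the slide 2 means of Os12g0541300 (3.74) and AK065117 (3.83). The size for Os01g0360200 also rested on single arrays. Without replicate 3, the differences of AK065117 and AK121916 were 2.30 and 1.72, in a fit that sets the Lon-gin-labelled array alone against slide 1. Without the Lon-gin-labelled array they were 1.08 and 0.30, with replicate 3 alone against slide 1.

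The cultivar label was examined by setting its 1 Lon-gin array against the 3 Don-gin arrays over 37689 probes, by limma, with the lone array assumed to vary like the others. Of all probes, 0.00265% were called, and 0 of the 16 RBOH probes (2 at an unadjusted p under 0.05, beside 8.43% of all). Again limma was the only tool run. Os05g0528000 differed by -0.34 (SE 0.43, 95% interval -1.44 to 0.77, limma adjusted p = 0.89), and by 0.53 with no scaling. Os01g0360200 was higher on the Lon-gin-labelled array by 0.77 and 0.89 for its detected probes AK060770 and AY603975 and by 1.94 and 1.62 for AK065117 and AK121916. Their limma adjusted p ran from 0.42 to 0.83, so none passed. Without replicate 3 this fit is the same as the slide fit, and AK065117 and AK121916 differed by 2.30 and 1.72. The 12 remaining probes lay between -0.68 and 0.96. AK065117, AK121916 and the Os12g0541300 probe entered this fit through the Lon-gin-labelled array alone. That filter favours higher values there, so their differences are no independent support.

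Set against replicate 3 alone, the other array of slide 2, the Lon-gin-labelled array was 2.36-fold and 2.56-fold brighter for AK060770 and AY603975 of Os01g0360200, and 2.33-fold and 2.67-fold for AK065117 and AK121916. The log2 differences were 1.24, 1.36, 1.22 and 1.42. Over all probes detected on the 4 arrays, the SD of this difference was 0.82. That set holds AK060770 and AY603975 but not the dimmer AK065117 and AK121916. AK065117 and AK121916 passed the filter through the Lon-gin-labelled array alone. With slide as a block, the limma fit gives these same differences, since it then compares that array with replicate 3 only. On slide 1, where both arrays are labelled Don-gin, replicate 2 minus replicate 1 ran from -0.41 to -0.08 for the 4 probes of the gene. With 1 array carrying the label, cultivar and array cannot be told apart.

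**Figure D4:**
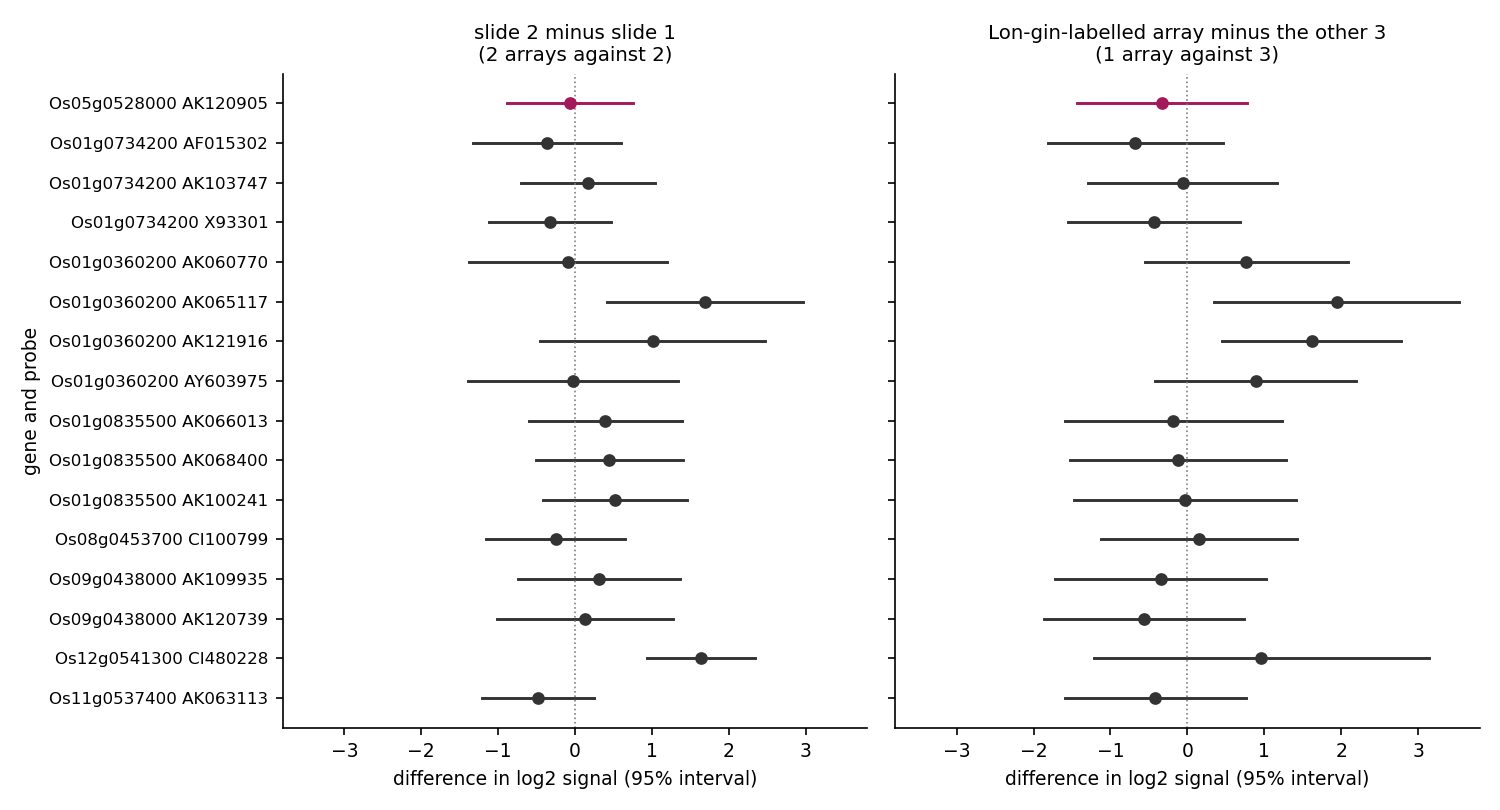
Difference in log2 signal of 16 RBOH probes for slide 2 minus slide 1 (left) and for the Lon-gin-labelled array minus the 3 Don-gin arrays (right), with 95% intervals from limma. Os05g0528000 (coloured) lies at -0.07 on the left and -0.34 on the right, with intervals that span 0. The 4 Os01g0360200 probes lie above 0 on the right without passing the adjusted threshold.

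Os05g0528000 was then compared with the other detected RBOH genes within each array, so that a shift of a whole array drops out. Its log2 signal minus the mean of the 6 other genes was 4.25, 4.02, 4.31 and 3.93 on replicates 1, 2, 3 and the Lon-gin-labelled array (SD 0.18), which describes the probes and not transcript amount. This difference changed by -0.02 between slides (exact permutation test, two-sided, p = 1.0). It changed by 0.40 with quantile normalization, 0.16 with normexp correction and 0.32 with the deposited log2 values, each without overlap of the slides (exact permutation p = 0.333), so its sign is not settled. With 2 arrays against 2 the test cannot give a p below 0.333. Set against the 12 detected probes one by one, the change ran from -0.59 to 0.41, with exact permutation p between 0.333 and 1.0 and Benjamini-Hochberg values from 0.571 to 1.0. Of all detected probes taken singly, 24.4% lay wholly higher on slide 2 and 29.4% wholly lower. No such share was computed for differences between probes, so the next counts are description only. The slides did not overlap for 7 of the 12 probes, with Os05g0528000 relatively higher on slide 2 for 2 of them and lower for 5. Among the 5 were all 3 Os01g0835500 probes (-0.46, -0.52 and -0.59), and the Os01g0734200 probes went both ways (0.30, -0.24 and 0.26). Relative to the Os01g0360200 probes, it changed by -1.67 and -1.79 from replicate 3 to the Lon-gin-labelled array and by -0.15 and -0.26 from replicate 1 to 2. The largest shifts of Os05g0528000 within a slide were thus those against Os01g0360200 on slide 2, where Os01g0360200 itself moved.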

How the data were processed

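Root-hair RNA of 4 samples was measured on Agilent rice 4x44K arrays in 1 colour. The deposited intensity values per spot (processed signal, median signal, local background) and the scanner's flags, which are other values, came from Feature Extraction, which the authors ran as version 11.5.1.1 per the file headers (9.1 in the submitters' notes). A second table of log2 values was deposited by the authors, whose methods say that intensities were normalized and log2-transformed as in earlier work, with the procedure itself not given in the sources used here. It ranks probes on each array exactly as the median spot signal does. Its column medians (7.70 and 7.71 for slide 1, 8.50 and 8.51 for slide 2) differ between slides, which may have been normalized apart, so its centring across slides is unknown. It served as an alternative.

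Without control spots, 43734 spots of 42477 probes were read on each array. Outlier spots (25 to 44 per array) were dropped where a probe had another spot. Log2 processed signals were averaged per probe, each array's 75th percentile was subtracted and the mean percentile added back. Comparisons were fitted over the whole table with limma 3.58.1 in R 4.3.3 (lmFit, eBayes, Benjamini-Hochberg, 2 residual degrees of freedom), after the code had been tested on simulated data. Fits with an array left out or with slide as a block had 1 residual degree of freedom. The number of arrays limits the precision. No label says whether samples came from separate plantings, so p-values measure the spread between these samples, which may be technical. Python 3.11.15, numpy 2.4.6, pandas 2.3.3, scipy 1.17.1 and matplotlib 3.10.9 were used.

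The alternatives were quantile normalization, normexp correction (offset 50, on median signals) with quantile normalization, no scaling, the deposited log2 values, the percentile over detected probes, no filter, gene means, other detection rules, each array left out and the slide as a block. All 9 members and their probes were named. Members, lists and tests were chosen with earlier results of these data known. Of 26 identifiers of partner genes (Rac/ROP GTPases, superoxide dismutases, catalases and others) 0, and of 11 markers 1, could be annotated, so partner lists were dropped. Protein and promoter sequences were not used here. Of the 9 identifiers, 0 were found on the study's list of root hair-preferential genes. The study names genes by LOC_Os identifiers, and no source at hand pairs the 9 with these. Absence of the genes from that list is therefore not shown. Unused columns of per-sample values numbered 0.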

Additional observations from a re-analysis of the deposited data

Results flagged for a closer look

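Each RBOH probe was checked for an array standing apart from the other 3. Of the 17 probes, 1 was so marked, about what chance gives, since chance marks about 1 in 20 groups. For AK072353 of Os05g0465800, replicate 3 was highest at 2.84 on the log2 scale, and its gap to the next array took 0.871 of the whole range, above Dixon's 95% critical value for 4 samples. Replicate 3 was also the only array on which this probe was well above background. Its median spot signal there was 39, beside 48 and 53 on slide 1 and 38 on the Lon-gin-labelled array, and its processed signals were 2.67, 2.69, 9.04 and 5.82 in the order of replicates 1, 2, 3 and the Lon-gin-labelled array. The slide 1 signals were close to their scanner errors (2.66 and 2.68) and lacked the positive and significant flag. The part of background subtraction in the replicate 3 value was not tested.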

How the results depend on the processing

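The level of Os05g0528000 was 13.21 and ran from 13.20 to 13.39 over the other settings, and from 13.14 to 13.29 when each array was left out. Its SD of 0.23 ran from 0.19 to 0.54. The number of RBOH genes detected on all arrays was 7, also with each array left out and with the positive and significant flag, but 6 where all probes of a gene had to be detected and 9 where 1 array was enough. The change of Os05g0528000 against the other genes, -0.02, ran from -0.02 to 0.40 over settings and from -0.21 to 0.17 with each array left out. The count of RBOH probes called between slides, 0, became 5 with no scaling (AK065117, Os12g0541300 and the 3 Os01g0835500 probes), where the median of all probes tested shifted to 1.08, and 1 with the percentile over detected probes or with no filter on dim probes (Os12g0541300, limma adjusted p = 0.049 in each). Without replicate 3, both comparisons become the same fit, with the Lon-gin-labelled array alone against slide 1. Over the whole array, the slide comparison called 1089 probes higher and 41 lower, against 155 and 23 with quantile normalization, 115 and 17 with normexp, 9522 and 41 with no scaling, 3090 and 50 with the deposited values and 1540 and 1592 with no filter. For the Lon-gin-labelled array, 1 and 0 became 31 and 33 with quantile normalization, 3 and 2 with normexp and 1649 and 283 with the slide as a block, and 0 with no scaling, the deposited values, detected probes or no filter. Leaving out each array gave 0 to 4292 higher and 0 to 360 lower between slides. The Lon-gin-labelled minus Don-gin difference of Os05g0528000 ran from -0.43 to 0.53 and so has no settled sign. The 4 Os01g0360200 probes were higher on the Lon-gin-labelled array in every setting run, by at least 0.06. The causes were not tested. With 4 arrays and 2 residual degrees of freedom, large differences can go uncalled, and dim probes depend on the background correction. In the simulated data, the slide fit called 5 of 50 probes with a log2 change of 2 and 49 of 50 with a change of 4. The fit of the Lon-gin-labelled array called fewer at both sizes. The slide fit also called 18 simulated probes that had not been changed. No paired analysis was possible because the samples form 1 group and share no replicate numbers with another.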
